A study of Macaca mulatta with 11 samples.

Results

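Leukocyte and macrophage marker genes were measured on Affymetrix Rhesus Macaque arrays in cumulus cells of the rhesus monkey, Macaca mulatta. The set holds 10 genes: LYZ, TYROBP, CD14, PTPRC, CD68, CD74, MAMU-DRA, CSF1R, AIF1 and CORO1A. Every probe set annotated with 1 of these symbols was taken, whatever its level. That gave 17 of the 52766 probe sets tested, and 10 of the 14132 genes with a symbol. All 17 entered the tests, since no filter on low values was applied.

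Cumulus cells are somatic cells of the follicle that enclose the oocyte, together forming the cumulus-oocyte complex. The study asked how maturation in culture, compared with maturation in the animal, changes their transcripts. All 11 samples were taken after stimulation with follicle-stimulating hormone (FSH). The 4 pre-maturation samples (PM 1 to PM 4) came from immature complexes after FSH alone, the 3 in vitro matured samples (IVM 1 to IVM 3) from complexes that matured in culture after FSH, and the 4 in vivo matured samples (VVM 1 to VVM 4) from complexes whose maturation took place in vivo, with human chorionic gonadotropin (hCG) given after FSH. The labels give neither the animals' ages nor whether arrays of a group represent separate animals or pooled complexes, so p-values reflect the spread among these arrays and nothing wider.

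Macrophages and monocytes are phagocytes that sense microbial products, digest what they engulf and present peptides on MHC class II molecules. In the ovary they lie mainly in the theca and stroma, outside the basement membrane that encloses the granulosa and cumulus cells, and leukocytes are known to gather around the follicle near ovulation. The genes described here serve that work in different ways: as an enzyme, surface receptors, a signalling adaptor, the antigen presentation machinery and regulators of the actin skeleton.

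The labelled cell type was checked against cumulus and granulosa genes. INHA, the inhibin alpha subunit of granulosa cells, lay between 13.05 and 14.01 on the log2 intensity scale on all 11 arrays. SERPINE2, a protease inhibitor abundant in cumulus cells, lay between 14.14 and 14.59. They are the brightest of 19 measured cumulus and granulosa genes, and the list as a whole was not steady. Of the 19 genes 10 were lower and 5 higher in VVM than in PM, against 21.8% and 18.0% of all genes. INHA itself was lower than in PM, by -0.57 in IVM and -0.35 in VVM, with adjusted p-values of 0.0063 and 0.0462 in limma. Array medians ranged from 5.34 to 5.36 in PM, 5.45 to 5.53 in IVM and 5.43 to 5.49 in VVM. The group mean of 11 of the 17 member probe sets lay below the lowest array median in PM, as did 10 in IVM and 6 in VVM. A fold against such a dim group may understate the true ratio, and whether such levels lie above background was not tested. These are bulk RNA samples, in which fewer cells of a type and less RNA per cell cannot be told apart. All levels and differences below are on the log2 intensity scale, differences carry the standard error (SE) of the limma fit, and adjusted p-values are limma's, called under 0.05. The fit pools the spread of PM, IVM and VVM, so a wide spread in VVM also widens the SE of IVM minus PM.

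**Figure D1:**
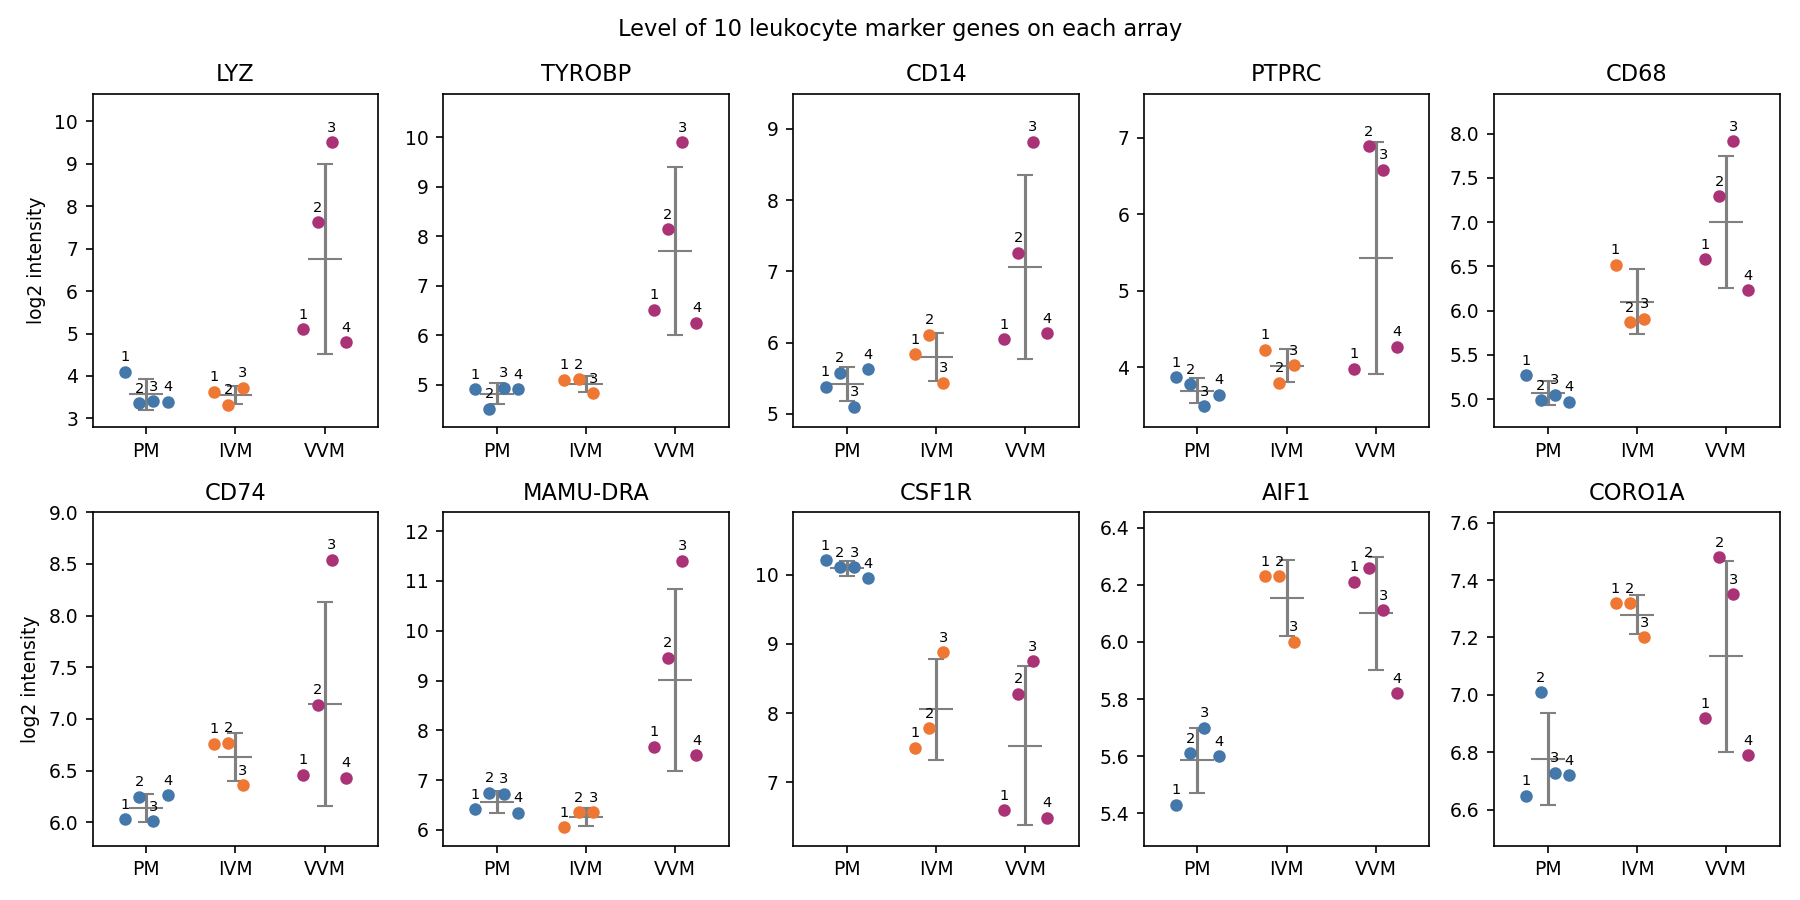
Log2 intensity (vertical axis) of the representative probe set of each of the 10 genes in the 4 PM, 3 IVM and 4 VVM arrays; points are single arrays, and grey dashes with whiskers are group means ± SD. LYZ ranged from 4.79 to 9.51 among the VVM arrays and from 3.32 to 4.10 on the other 7, while CSF1R was highest in PM, from 9.95 to 10.21.

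LYZ, TYROBP and CD14 were higher in VVM than in PM, and LYZ and TYROBP were also higher in VVM than in IVM. LYZ encodes lysozyme, the enzyme that macrophages and neutrophils use to cleave bacterial cell walls. It stood at 4.10, 3.36, 3.41 and 3.39 in PM 1 to PM 4, at 3.63, 3.32 and 3.72 in IVM 1 to IVM 3, and at 5.10, 7.62, 9.51 and 4.79 in VVM 1 to VVM 4. All 4 VVM arrays lay above the other 7, with VVM 3 and VVM 2 far above VVM 1 and VVM 4. The VVM mean of 6.76 ± 2.23 (SD, n = 4) was 9.15-fold the PM mean of 3.56 ± 0.36 (SD, n = 4), a log2 difference of 3.19 ± 0.83 (SE) with an adjusted p of 0.0134. It was 9.19-fold the IVM mean of 3.56 ± 0.21 (SD, n = 3), with an IVM minus VVM difference of -3.20 ± 0.90 (SE) and an adjusted p of 0.0413. IVM and PM differed by -0.01 ± 0.90 (SE), with an adjusted p of 0.996. The rise over PM was called in all 11 fits that each left out 1 array, at 2.28 without VVM 3 and 3.85 without VVM 4. The IVM and VVM difference was called in 3 of those 11, at -2.28 without VVM 3 and -3.85 without VVM 4. It was lost without any 1 of the PM or IVM arrays or without VVM 2, where it was -2.91 with an adjusted p of 0.0942. With array weights it was -3.42 with an adjusted p of 0.0569.

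TYROBP encodes DAP12, the adaptor that carries activating signals from receptors of myeloid and natural killer cells. It was measured at 4.91, 4.51, 4.94 and 4.91 in PM 1 to PM 4 and at 5.10, 5.11 and 4.83 in IVM 1 to IVM 3. In VVM 1 to VVM 4 it was at 6.51, 8.14, 9.90 and 6.25. As with LYZ, no VVM array overlapped PM or IVM, and VVM 3 and VVM 2 were the highest. VVM exceeded PM by 2.89 ± 0.63 (SE), or 7.39-fold, with an adjusted p of 0.00519, and this was called in all 11 fits with 1 array left out, at 2.15 without VVM 3. IVM minus VVM was -2.69 ± 0.68 (SE), a fold of 6.46 with an adjusted p of 0.0261. That call was lost without IVM 1, IVM 2, IVM 3 or VVM 2, where the adjusted p reached 0.0769, and the difference was -1.96 without VVM 3. IVM exceeded PM by 0.19 ± 0.68 (SE), which did not pass the test. The only TYROBP probe set and the brightest MAMU-DRA probe set are of the kind whose probes match several transcripts, so related genes may add to their levels.

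CD14 encodes the co-receptor for bacterial lipopolysaccharide on monocytes. Its levels were 5.38, 5.58, 5.10 and 5.63 in PM 1 to PM 4, 5.84, 6.11 and 5.44 in IVM 1 to IVM 3, and 6.05, 7.26, 8.82 and 6.13 in VVM 1 to VVM 4. The VVM arrays lay above all PM arrays, but VVM 1 lay below IVM 2 and VVM 4 just above it. VVM was 3.12-fold above PM, by 1.64 ± 0.50 (SE) with an adjusted p of 0.0271. The call was lost without PM 1, PM 3 or VVM 2, where adjusted p-values were 0.0593, 0.0639 and 0.0628. IVM minus VVM was -1.27 ± 0.54 (SE) with an adjusted p of 0.156.

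Of the antigen presentation genes, MAMU-DRA rose in VVM and CD74 did not pass the test. MAMU-DRA encodes the alpha chain of the macaque MHC class II DR molecule and is represented by 3 probe sets. The brightest stood at 6.41, 6.75, 6.73 and 6.34 in PM 1 to PM 4, at 6.05, 6.35 and 6.36 in IVM 1 to IVM 3, and at 7.67, 9.46, 11.41 and 7.50 in VVM 1 to VVM 4. The VVM arrays did not overlap PM or IVM, with the same order within VVM as for LYZ and TYROBP. VVM exceeded PM 5.48-fold, by 2.45 ± 0.68 (SE) with an adjusted p of 0.018, in all 11 fits with 1 array left out, at 1.65 without VVM 3. IVM minus VVM was -2.75 ± 0.73 (SE), a fold of 6.75 with an adjusted p of 0.0331, and the call was lost without IVM 1, IVM 2, IVM 3 or VVM 2, up to an adjusted p of 0.0927. Without VVM 3 it was -1.96.

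The second MAMU-DRA probe set read 5.98, 7.60, 9.57 and 5.87 in VVM 1 to VVM 4 and between 4.98 and 5.53 on the 7 PM and IVM arrays, again with no overlap. VVM exceeded PM by 1.97 ± 0.65 (SE) with an adjusted p of 0.0384, a call lost without any 1 of PM 1 to PM 4, IVM 1 or VVM 2, up to an adjusted p of 0.0877. Without VVM 3 it was 1.20. IVM minus VVM was -2.13 ± 0.70 (SE) with an adjusted p of 0.0743, and it was called without VVM 1, at -2.56, or without VVM 4, at -2.59. The dimmest probe set was at 2.28 to 2.95 in PM and IVM and at 2.89, 3.71, 6.45 and 2.65 in VVM 1 to VVM 4, where only VVM 2 and VVM 3 lay above every PM and IVM array. It passed no test. With the mean of the 3 probe sets, IVM minus VVM was -2.04 with an adjusted p of 0.0694.

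CD74 encodes the invariant chain, which escorts MHC class II molecules and guards their peptide groove. It stood at 6.03, 6.25, 6.01 and 6.26 in PM 1 to PM 4, at 6.76, 6.77 and 6.36 in IVM 1 to IVM 3, and at 6.46, 7.14, 8.54 and 6.43 in VVM 1 to VVM 4. Both matured groups lay above every PM array and overlapped each other. VVM minus PM was 1.0 ± 0.38 (SE) with an adjusted p of 0.0641, which passed without VVM 1, at 1.23, or without VVM 4, at 1.24. IVM minus PM was 0.49 ± 0.41 (SE), with an adjusted p of 0.354. The SD was 0.14 in PM and 0.24 in IVM, and the SD of 0.99 in VVM widened this SE. In the fit without VVM 2 and VVM 3, added after the data were seen, the same 0.49 had an adjusted p of 0.0238 in limma. Leaving out the highest arrays narrows the pooled spread, so that p may be too small.

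PTPRC encodes CD45, the tyrosine phosphatase on the surface of nearly all nucleated blood-derived cells, and is represented by 4 probe sets. The brightest over all arrays read 3.87, 3.78, 3.49 and 3.64 in PM 1 to PM 4, 4.23, 3.80 and 4.03 in IVM 1 to IVM 3, and 3.98, 6.89, 6.58 and 4.27 in VVM 1 to VVM 4. VVM 2 and VVM 3 were high, while VVM 1 and VVM 4 lay within or next to the IVM range. VVM exceeded PM 3.32-fold, by 1.73 ± 0.57 (SE) with an adjusted p of 0.0375. This call was lost without any 1 PM array and without VVM 2 or VVM 3, where the difference was 1.25 and 1.35 with adjusted p-values of 0.094 and 0.0989. It was also lost when each array was centred on its median, at 1.63 with an adjusted p of 0.0533, and when only the PM and VVM arrays were fitted, with an adjusted p of 0.0627. IVM minus VVM was -1.41 ± 0.61 (SE), with an adjusted p of 0.166.

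The other PTPRC probe sets passed no test. The probe set numbered 3, PTPRC (3), read 4.25, 7.86, 7.38 and 3.42 in VVM 1 to VVM 4, against 3.29 to 4.45 in PM and 2.96 to 3.24 in IVM. VVM 1 and VVM 4 lay inside the PM range. Its IVM minus VVM difference of -2.64 ± 0.90 (SE) had an adjusted p of 0.0856 and passed without VVM 4, at -3.41. Its VVM minus PM difference of 2.03 ± 0.84 (SE) passed without VVM 4, at 2.80, and with array weights, at 2.35 with an adjusted p of 0.0414. The probe set numbered 2 read 4.28, 5.48, 4.89 and 3.95 in VVM, and its VVM minus PM difference of 0.75 ± 0.27 (SE) had an adjusted p of 0.0551 and passed without VVM 1, at 0.87, or VVM 4, at 0.98. The fourth lay between 2.73 and 3.01 on all 11 arrays.

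**Figure D2:**
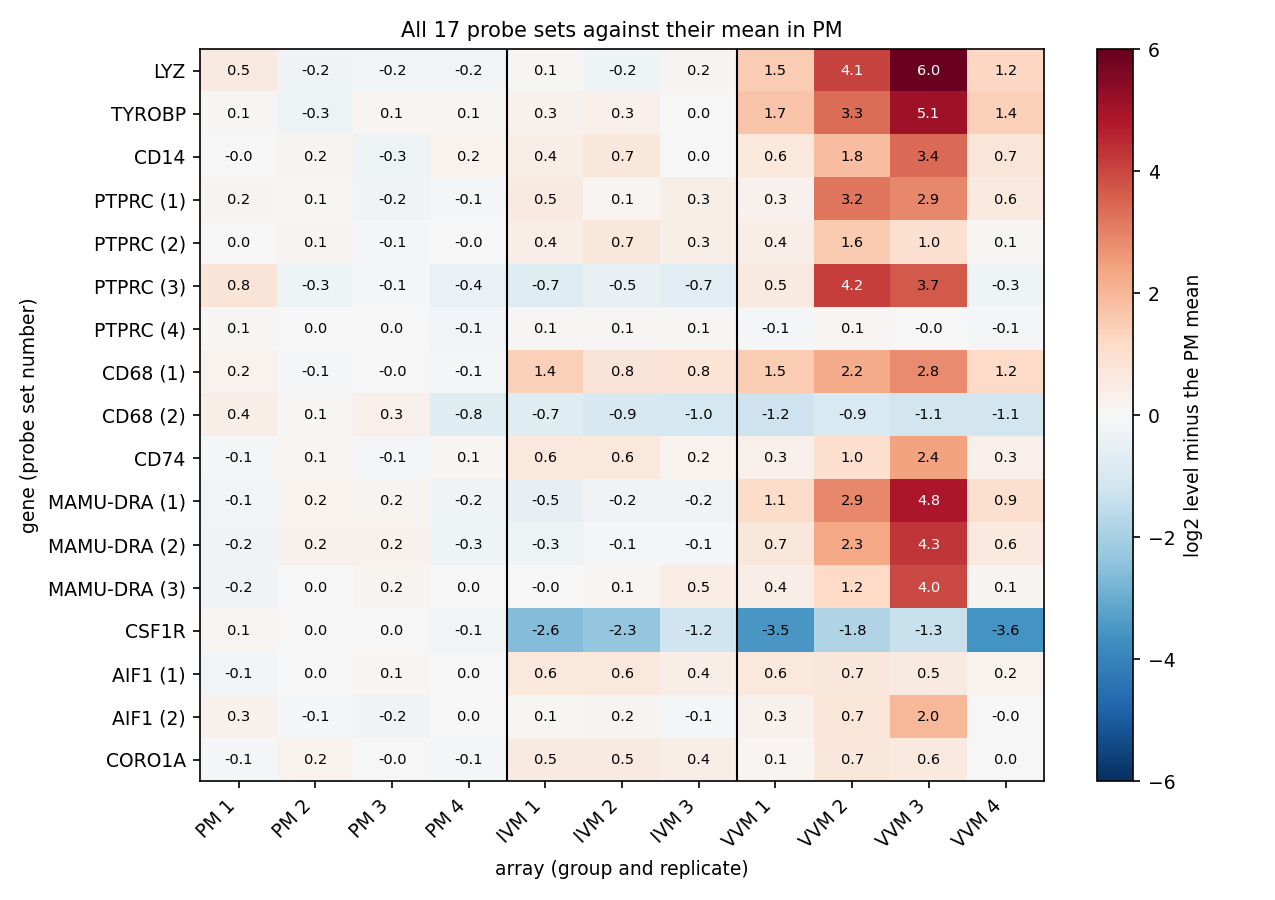
Log2 intensity of each of the 17 member probe sets (rows) on each of the 11 arrays (columns) minus that probe set's mean over the 4 PM arrays; the colour scale is in log2 units. VVM 2 and VVM 3 held the highest values of 13 probe sets, while CSF1R was below PM on all IVM and VVM arrays.

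CSF1R and 1 of the 2 CD68 probe sets, both markers of macrophages, ran the other way and were lower after maturation. CSF1R encodes the receptor for the growth factor CSF1, on which macrophages depend. It was at 10.21, 10.11, 10.11 and 9.95 in PM 1 to PM 4, at 7.50, 7.78 and 8.88 in IVM 1 to IVM 3, and at 6.60, 8.28, 8.75 and 6.49 in VVM 1 to VVM 4. All PM arrays lay above all matured arrays, and IVM and VVM overlapped. IVM fell below PM 4.12-fold, by -2.04 ± 0.52 (SE) with an adjusted p of 0.00999, and VVM 5.92-fold, by -2.57 ± 0.48 (SE) with an adjusted p of 0.00225. Both falls were called in all 11 fits with 1 array left out, but the fall in IVM did not pass with the 3′ minus 5′ RNA quality value as a covariate, at -2.17 with an adjusted p of 0.096. Within VVM, CSF1R was still higher in VVM 2 and VVM 3 than in VVM 1 and VVM 4, and without VVM 2 and VVM 3 the fall from PM was -3.55 with an adjusted p of 0.000197. IVM and VVM differed by 0.52 ± 0.52 (SE), with an adjusted p of 0.565. Without VVM 2 and VVM 3 that difference was 1.51 with an adjusted p of 0.0272.

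CD68 encodes macrosialin, a lysosomal membrane glycoprotein abundant in phagocytes, and its 2 probe sets moved in opposite directions. The brighter stood at 5.27, 4.99, 5.05 and 4.97 in PM 1 to PM 4, at 6.52, 5.87 and 5.91 in IVM 1 to IVM 3, and at 6.58, 7.29, 7.91 and 6.23 in VVM 1 to VVM 4. Both matured groups lay above all PM arrays, and VVM 4 lay below IVM 1. VVM rose 3.81-fold over PM, by 1.93 ± 0.31 (SE) with an adjusted p of 0.000825, in all 11 fits with 1 array left out. IVM rose 2.04-fold, by 1.03 ± 0.33 (SE) with an adjusted p of 0.0297, a call lost without PM 2, PM 3, PM 4 or IVM 1; without IVM 1 it was 0.82 with an adjusted p of 0.118. IVM minus VVM was -0.90 ± 0.33 (SE) with an adjusted p of 0.107 and passed without VVM 4, at -1.16.

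The dimmer CD68 probe set read 4.97, 4.64, 4.87 and 3.82 in PM 1 to PM 4, 3.85, 3.63 and 3.54 in IVM 1 to IVM 3, and 3.35, 3.66, 3.49 and 3.46 in VVM 1 to VVM 4. PM 4 was the low PM array and lay just below IVM 1. Both groups fell from PM, IVM by -0.90 ± 0.23 (SE) with an adjusted p of 0.0108 and VVM by -1.09 ± 0.22 (SE) with an adjusted p of 0.00315, each in all 11 fits with 1 array left out. The direction for CD68 as a gene therefore depends on the probe set. With the mean of both, VVM minus PM was 0.42 with an adjusted p of 0.138 and IVM minus PM was 0.06.

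AIF1 and CORO1A, which act on actin, showed small differences between the groups. AIF1 encodes IBA1, a calcium-binding protein that bundles actin in macrophages and microglia. Its brighter probe set stood at 5.43, 5.61, 5.70 and 5.60 in PM 1 to PM 4, at 6.23, 6.23 and 6.0 in IVM 1 to IVM 3, and at 6.21, 6.26, 6.11 and 5.82 in VVM 1 to VVM 4. PM lay below both matured groups, which overlapped. IVM exceeded PM by 0.57 ± 0.13 (SE) with an adjusted p of 0.00584, and VVM by 0.51 ± 0.12 (SE) with an adjusted p of 0.00804. For scale, the median over all probe sets was 0.17 in IVM against PM and 0.10 in VVM against PM. The dimmer AIF1 probe set read 3.51, 3.97, 5.20 and 3.20 in VVM 1 to VVM 4 against 3.01 to 3.52 in PM and IVM. Its VVM minus PM difference of 0.73 ± 0.34 (SE) passed without VVM 4, at 0.99 with an adjusted p of 0.0438.

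CORO1A encodes coronin 1A, an actin regulator of leukocytes. Its levels were 6.65, 7.01, 6.73 and 6.72 in PM 1 to PM 4, 7.32, 7.32 and 7.20 in IVM 1 to IVM 3, and 6.92, 7.48, 7.35 and 6.79 in VVM 1 to VVM 4. The IVM arrays lay above all PM arrays, while VVM 1 and VVM 4 lay inside the PM range. IVM exceeded PM by 0.50 ± 0.17 (SE) with an adjusted p of 0.036. The call was lost without PM 1, PM 3, PM 4 or any 1 IVM array, up to an adjusted p of 0.0932, and when each array was centred on its median, at 0.35 with an adjusted p of 0.122. Centring likewise ended the call of the brighter CD68 probe set in IVM against PM, at 0.88 with an adjusted p of 0.0636. VVM minus PM was 0.36 ± 0.16 (SE) with an adjusted p of 0.109, and it passed without VVM 4, at 0.47.

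**Figure D3:**
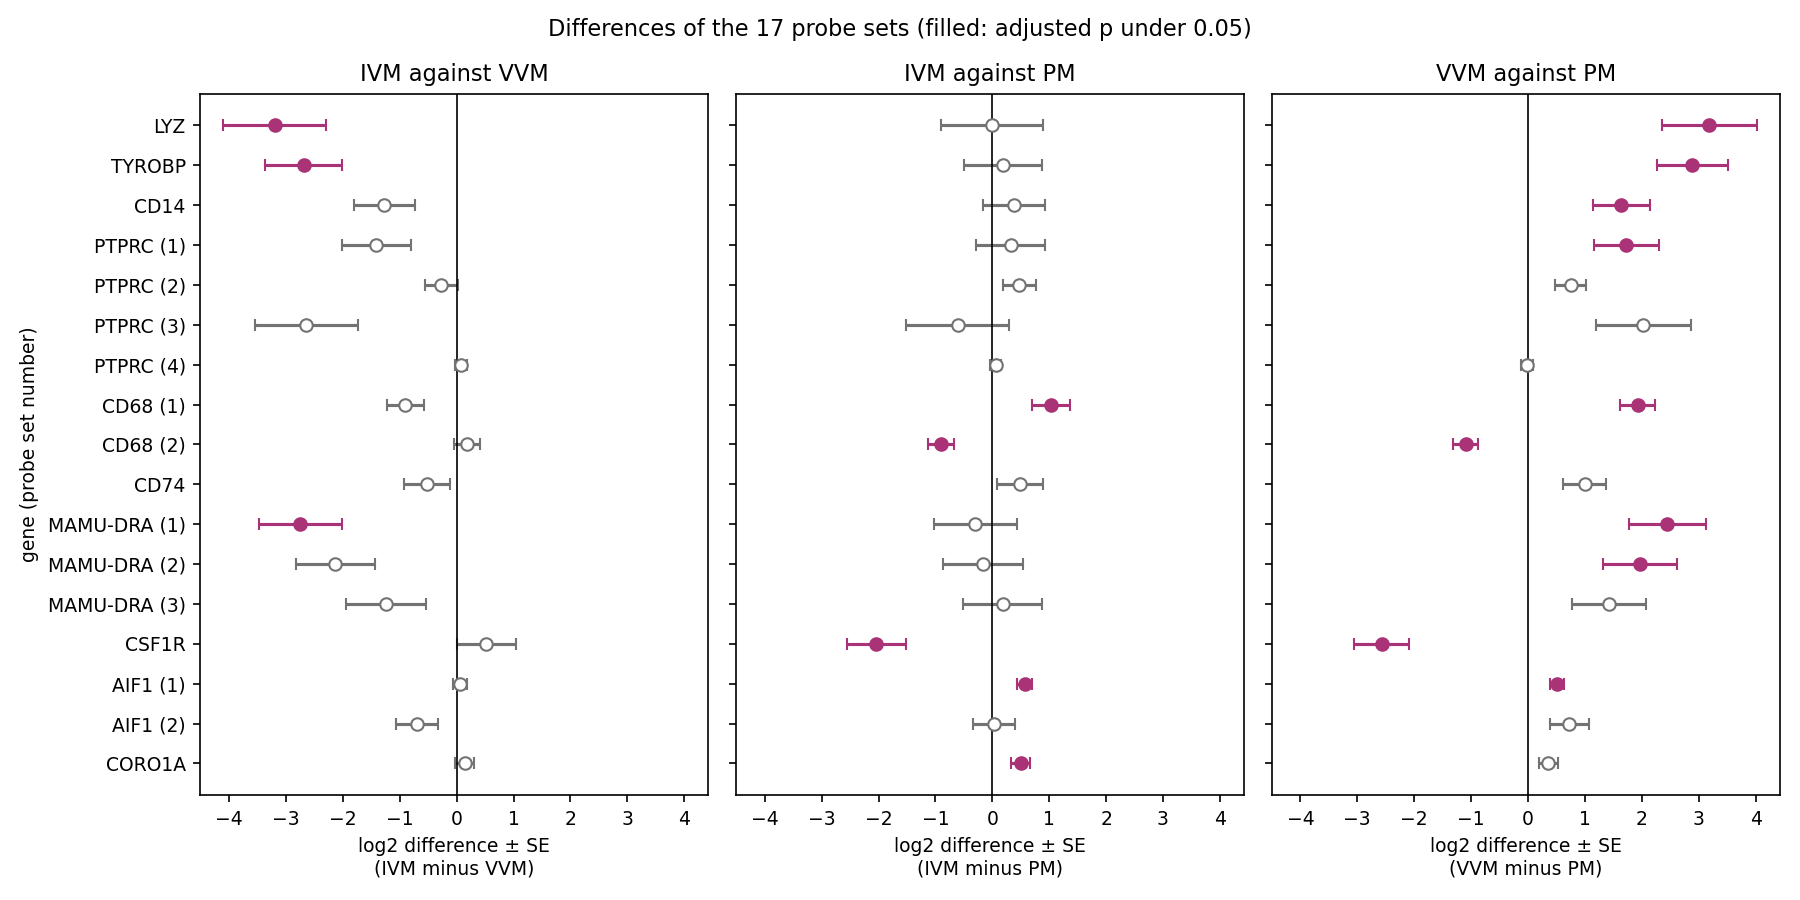
Log2 difference (horizontal axis) of each of the 17 member probe sets (vertical axis) in each of the 3 group comparisons, one per panel; horizontal bars are 1 SE of the limma fit and filled points have an adjusted p under 0.05. In VVM against PM 8 probe sets were higher and 2 lower, in IVM against PM 3 and 2, and in IVM against VVM 0 and 3.

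Counted together, 8 of the 17 probe sets (47.1%) were higher in VVM than in PM and 2 were lower (11.8%), where 16.7% of all probe sets were higher and 14.5% were lower. By gene, 7 of 10 were higher and 1 was lower, against 18.0% and 21.8% of all genes. The groups did not overlap for 11 probe sets, or 64.7%, against 34.6% of all probe sets. The median member difference was 1.43, and that of all probe sets 0.10. In IVM against VVM 3 of 17 were lower in IVM (17.6%) and 0 were higher in limma (8 and 0 at an unadjusted p under 0.05), where 5.73% and 5.62% of all probe sets were. The 3 are LYZ, TYROBP and the brightest MAMU-DRA probe set. The groups did not overlap for 5 (29.4%, against 22.2% of all), and the medians were -0.90 for the members and 0.08 for all. When the fit held only the IVM and VVM arrays, these 3 kept their differences but not the call, with adjusted p-values of 0.0995 for LYZ, 0.0742 for TYROBP and 0.087 for MAMU-DRA, and 6 of the 17 were lower at an unadjusted p under 0.05.

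In IVM against PM 3 of the 17 were higher (17.6%) and 2 lower (11.8%), which lies below the background of 25.3% higher and 15.4% lower. The pooled spread includes VVM, where the SD of LYZ was 2.23, against 0.36 in PM and 0.21 in IVM. Few calls here therefore do not show that IVM and PM were alike. Without VVM 2 and VVM 3 the counts were 5 higher and 2 lower, with no background share at hand for that fit. Groups did not overlap for 7 (41.2%, against 45.6% of all probe sets), and the medians were 0.18 and 0.17. The background itself depends on scaling: of all probe sets called, 62.2% were higher in IVM than in PM, but 42.6% were after centring each array on its median. In VVM against PM the share was 53.5%, and 37.7% after centring. The 3 comparisons share groups of arrays, so their counts are not independent of each other.

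The members did not rise evenly over the VVM arrays. VVM 2 and VVM 3 held the 2 highest levels of the 11 arrays for 13 of the 17 probe sets, against 2.20% of all probe sets. These arrays were singled out after their levels were seen, so the count is a description with no test. The pair also differed from each other. VVM 3 exceeded VVM 2 by 1.89 for LYZ, 1.76 for TYROBP, 1.56 for CD14, 1.40 for CD74 and 1.95 to 2.74 over the 3 MAMU-DRA probe sets. All 4 PTPRC probe sets were lower in VVM 3, by between -0.17 and -0.60, and CORO1A by -0.12. Over all probe sets the median difference between these arrays was -0.02.

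With VVM 2 and VVM 3 left out, an alternative added after the data were seen, 5 of the 17 probe sets were higher in VVM than in PM and 2 lower, where 9.13% and 10.1% of all probe sets were. Leaving out the highest arrays narrows the spread in VVM, so these p-values are too small. LYZ then exceeded PM by 1.39 (adjusted p 0.00336), TYROBP by 1.57 (0.000421), and the brightest MAMU-DRA probe set by 1.03 (0.00319). The differences no longer passed for CD14, at 0.67 with an adjusted p of 0.0537, for PTPRC, at 0.43 with 0.116, or for AIF1, at 0.43 with 0.0839. In IVM against VVM 4 were lower in IVM and 1 higher, where 4.58% and 2.90% of all probe sets were. LYZ was at -1.39, TYROBP at -1.37 and 2 of the MAMU-DRA probe sets at -1.33 and -0.80; the higher one was CSF1R.

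**Figure D4:**
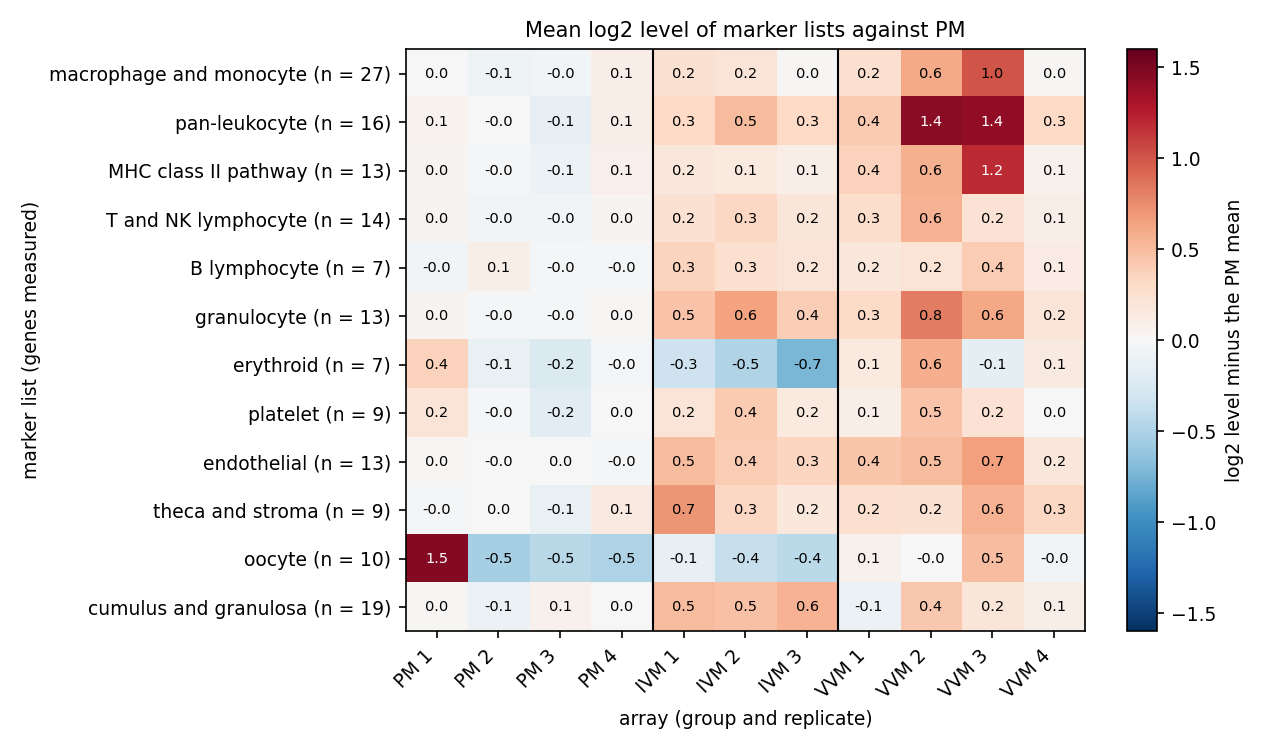
Mean log2 intensity of the measured genes of each of 12 marker lists (rows) on each of the 11 arrays (columns) minus the list's mean over the 4 PM arrays; the colour scale is in log2 units. The pan-leukocyte list stood at 1.45 and 1.42 in VVM 2 and VVM 3, and the oocyte list at 1.47 in PM 1.

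Other leukocyte genes were counted in lists without the members. Some of each of the following 3 lists were higher in VVM than in PM, while most genes of each list were not called higher, and fewer were called without VVM 2 and VVM 3. Over all genes 18.0% were higher and 21.8% lower in VVM than in PM, with a median difference of 0.04. Of 27 measured macrophage and monocyte genes 12 were higher and 2 lower, with a median of 0.43. Of 16 pan-leukocyte genes 6 were higher and 0 lower, with a median of 0.38. Of 13 genes of the MHC class II pathway 6 were higher and 2 lower, with a median of 0.66. Without VVM 2 and VVM 3 the counts were 1 higher and 2 lower for macrophages, 2 and 1 for pan-leukocyte genes, and 5 and 1 for the MHC class II pathway. In that fit 10.7% of all genes were higher, and 10.1% of all probe sets were lower. The share of all genes lower is not at hand for that fit. In the full fit it was above the probe set share, at 21.8% against 14.5%. VVM 2 and VVM 3 held the 2 highest levels for 11, 7 and 4 genes of these lists, against 2.36% of all genes.

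The mean level of the pan-leukocyte list, relative to its PM mean, was 0.42, 1.45, 1.42 and 0.32 in VVM 1 to VVM 4. In IVM 1 to IVM 3 it was 0.32, 0.51 and 0.32, so VVM 1 and VVM 4 lay inside the IVM range. LCP1, which encodes the leukocyte actin bundler L-plastin, stood at 6.20, 9.08, 9.75 and 5.33 in VVM 1 to VVM 4, against 3.91 to 5.45 on the PM and IVM arrays, so only VVM 4 overlapped them. It exceeded PM by 3.20 ± 0.85 (SE) with an adjusted p of 0.0145, in all 11 fits with 1 array left out, and by 1.38 with an adjusted p of 0.0647 without VVM 2 and VVM 3. CD48, a surface ligand of lymphocytes and monocytes, was at 5.65, 8.70, 8.53 and 5.51 in VVM 1 to VVM 4, with VVM 2 the highest, as for PTPRC. Its rise over PM of 2.03 ± 0.66 (SE), with an adjusted p of 0.0379, was lost without any 1 PM array, VVM 2 or VVM 3, up to an adjusted p of 0.099. SRGN, the proteoglycan core of secretory granules, did not follow the leukocyte pattern. High on every IVM and VVM array, it adds to the list mean there. It was at 6.48 to 7.56 in PM, at 12.53 to 13.16 in IVM and at 12.94 to 13.52 in VVM, and rose over PM by 5.85 ± 0.28 (SE) in IVM and 6.21 ± 0.26 (SE) in VVM, with adjusted p-values of 2.33e-06 and 7.96e-07.

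The macrophage list stood at 0.25, 0.61, 1.0 and 0.02 above its PM mean in VVM 1 to VVM 4. In IVM 1 to IVM 3 it stood at 0.24, 0.2 and 0.02. CYBB, the membrane subunit of the phagocyte oxidase, was at 4.83, 6.22, 7.01 and 4.60 in VVM. It exceeded PM by 1.34 ± 0.43 (SE) with an adjusted p of 0.0358, lost without any 1 PM array, VVM 2 or VVM 3, up to an adjusted p of 0.0958. CTSS, a lysosomal protease that trims the invariant chain, rose by 1.21 ± 0.33 (SE) with an adjusted p of 0.0162, in all 11 fits with 1 array left out. Without VVM 2 and VVM 3 the differences were 0.39 for CYBB and 0.62 for CTSS, with adjusted p-values of 0.108 and 0.0594, and neither was called. The 2 list genes called lower in VVM than in PM were CYBA and ITGAM. CYBA fell by -1.07 ± 0.23 (SE) with an adjusted p of 0.00454, in all 11 fits with 1 array left out. It was also higher in IVM than in VVM, by 1.17 ± 0.25 (SE) with an adjusted p of 0.0113. ITGAM fell by -0.63 ± 0.18 (SE) with an adjusted p of 0.021, lost without PM 1, VVM 3 or VVM 4. MRC1, the mannose receptor, lay between 10.68 and 11.87 in PM, 9.46 and 10.51 in IVM, and 10.03 and 11.04 in VVM. For MRC1 IVM was lower than PM by -1.25 ± 0.34 (SE) with an adjusted p of 0.0139. That call was lost without IVM 2, at an adjusted p of 0.0655. VVM minus PM was -0.69 ± 0.32 (SE) for MRC1 and did not pass, with an adjusted p of 0.119. Summed linear intensity over the list was 4040 to 5750 in PM, 3380 to 4120 in IVM and 2720 to 4820 in VVM, so the sum, carried by bright genes such as MRC1, overlapped between the groups.

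In the MHC class II list MAMU-DPA, the alpha chain of the DP molecule, read 6.31, 7.34, 10.04 and 5.99 in VVM 1 to VVM 4 against 4.92 to 5.34 in PM and IVM. As for MAMU-DRA, all VVM arrays lay above the rest and VVM 3 was the highest. It exceeded PM by 2.26 ± 0.68 (SE) with an adjusted p of 0.0262, lost without PM 1, PM 4 or VVM 2, up to an adjusted p of 0.0604. Other genes of the list changed in both matured groups. MAMU-DMA exceeded PM by 0.98 ± 0.17 (SE) in VVM and 0.83 ± 0.19 (SE) in IVM, with adjusted p-values of 0.00145 and 0.00527. MAMU-DOA did so by 0.58 ± 0.13 (SE) and 0.94 ± 0.14 (SE), with 0.00557 and 0.00044. Neither passed in IVM against VVM. RFX5, a transcription factor of MHC class II promoters, fell from PM in VVM by -0.63 ± 0.11 (SE) with an adjusted p of 0.00178. In IVM it fell by -0.5 ± 0.12 (SE) with an adjusted p of 0.0082.

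The same lists were counted in the comparisons that involve IVM. IVM against PM gave 2 higher and 2 lower of the 27 macrophage genes, 1 and 1 of the 16 pan-leukocyte genes, and 3 and 2 of the 13 MHC class II genes, where 25.0% of all genes were higher and 20.9% lower. IVM against VVM gave 1 higher and 0 lower, 1 and 0, and 0 and 1, where 9.06% and 7.63% of all genes were.

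Markers of other cell types were read on the same arrays. No gene was at 0 on any array, since RMA values stay above it. In VVM against PM 5 of 14 T and natural killer cell genes were higher and 1 lower, 0 of 7 B cell genes passed in limma (1 was higher at an unadjusted p under 0.05), 6 of 13 granulocyte genes were higher and 0 lower, and 4 of 13 endothelial genes were higher and 0 lower. The counts were 2 higher and 1 lower of 9 platelet genes, 3 and 1 of 9 theca and stroma genes, 2 and 0 of 10 oocyte genes, and 5 and 10 of 19 cumulus and granulosa genes. These counts stand beside 18.0% of all genes higher and 21.8% lower. Without VVM 2 and VVM 3 they were 2 higher and 1 lower for T and natural killer cells, 0 and 0 for B cells, 2 and 0 for granulocytes, 1 and 0 for endothelium, 0 and 0 for platelets, 2 and 1 for theca and stroma, 1 and 0 for the oocyte, and 5 and 9 for cumulus cells. In that fit 10.7% of all genes were higher, and of all probe sets 9.13% were higher and 10.1% lower. The share of all genes lower, which may exceed that of probe sets, is not at hand for it. Summed linear intensity ran from 5560 to 6810 in VVM and from 9780 to 12900 in PM for the T and natural killer list, in which GZMA, a granule protease, was bright on all arrays and fell in VVM by -1.28 ± 0.19 (SE) with an adjusted p of 0.000516. For granulocytes it ran from 507 to 846 in VVM, 585 to 763 in IVM and 402 to 433 in PM, and for B cells from 350 to 387, 375 to 417 and 287 to 347. For endothelial genes it ran from 869 to 1710 in VVM, 1230 to 1420 in IVM and 751 to 777 in PM. VWF, the endothelial and platelet adhesion protein, was at 8.38, 7.88, 9.52 and 6.54 in VVM 1 to VVM 4 and exceeded PM by 2.32 ± 0.47 (SE) with an adjusted p of 0.00354. ENG, the brightest endothelial gene, did not pass in VVM against PM, at 0.16 with an adjusted p of 0.424. It was higher in IVM than in VVM by 1.35 ± 0.15 (SE) with an adjusted p of 0.00055. In IVM against PM 5 of 13 endothelial and 6 of 13 granulocyte genes were higher and 0 lower, where 25.0% of all genes were higher and 20.9% lower. VVM 2 and VVM 3 held the 2 highest levels for 4 of the 13 granulocyte genes, a share like that of the MHC class II list. They did so for 2 of 13 endothelial, 2 of 19 cumulus and granulosa and 1 of 14 T and natural killer cell genes. For the other lists of this paragraph the count was 0, against 2.36% of all genes.

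Of the 7 erythroid genes HBB alone was higher in VVM than in PM, and their median difference was -0.03. HBA, alpha globin, was at 8.35, 9.96, 7.45 and 8.21 in VVM 1 to VVM 4 and from 7.78 to 9.89 in PM, a VVM minus PM difference of -0.03 ± 0.55 (SE). HBB, beta globin, was at 9.57, 9.89, 8.15 and 9.59 in VVM 1 to VVM 4, from 7.23 to 7.81 in PM and from 6.25 to 6.89 in IVM. VVM was above both groups on every array, but VVM 3, the highest array for LYZ and MAMU-DRA, was the lowest VVM array here. HBB exceeded PM in VVM by 1.77 ± 0.32 (SE) with an adjusted p of 0.00194, and IVM minus VVM was -2.76 ± 0.35 (SE) with an adjusted p of 0.000933. The 7 genes summed to 756 to 2300 in VVM, 683 to 1640 in PM and 408 to 550 in IVM. PM 1, the highest PM array for LYZ and LCP1, read 8.45 and 8.47 for the oocyte genes NLRP5 and ZAR1, against at most 3.25 and 4.61 on the other PM arrays. PM 1 was also the highest PM array for HBA, at 9.89, and for the erythroid gene ALAS2, at 8.1, but not for HBB, at 7.65.

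The bacterial hybridization controls stood at 10.16 to 10.51 in PM, 11.75 to 12.41 in IVM and 10.70 to 11.59 in VVM, and the mean 3′ minus 5′ difference of the RNA quality probe sets was 3.20 to 3.45, 3.67 to 4.36 and 3.44 to 3.90. With the 3′ minus 5′ value as a covariate, VVM against PM kept 2 higher and 2 lower member probe sets, and the calls for LYZ (2.39, adjusted p 0.127), TYROBP (2.32, 0.0614), CD14 (1.16, 0.208), PTPRC (1.14, 0.269) and MAMU-DRA (1.93, 0.141) were lost. In IVM against VVM the same covariate kept LYZ, TYROBP and MAMU-DRA, at -3.68, -3.03 and -3.07, and 4 of the 17 were called. In IVM against PM it left 1 call, the dimmer CD68 probe set, and CSF1R (-2.17, adjusted p 0.096), the brighter AIF1 (0.57, 0.0837) and CD68 (0.31, 0.641) probe sets and CORO1A (0.32, 0.414) lost theirs. With the hybridization controls as a covariate, which was added after the data were seen and did not overlap between PM and the matured groups, limma called 1 of the 17 in VVM against PM and 0 in either of the other comparisons, with 3 in VVM against PM, 1 in IVM against PM and 9 in IVM against VVM at an unadjusted p under 0.05. The differences moved in opposite ways: IVM minus VVM was -4.51 for LYZ, -3.85 for TYROBP and -4.04 for MAMU-DRA, while VVM minus PM was 1.67, 1.54 and 0.96. Whether the members lost calls more often than other probe sets was not tested. Calls over all probe sets fell too. With the hybridization covariate they fell in every comparison, in IVM against PM almost to none. With the 3′ minus 5′ covariate they also fell in IVM against PM. The counts over all probe sets are given in the closing section. The part of the other cell types in the member differences was not tested.

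The genes whose levels ran most like each member were found among 9591 genes, by Pearson correlation over the 11 arrays, which share their groups. These values are a description. LYZ was closest to ITLN1 (r = 0.973), LCP1 (0.972) and MAMU-DPA (0.969), and TYROBP to MAMU-DPA (0.974), ITLN1 (0.971) and LGMN (0.962). CD14 was closest to CTSS (0.976) and IL10RA (0.969), and CD74 to IL10RA (0.971) and CTSS (0.962). MAMU-DRA was closest to MAMU-DPA (0.981), and PTPRC to CD48 (0.982), CCL3 (0.976) and GPR84 (0.975). Members with smaller or opposite changes in VVM had other neighbours: RFX5 (0.973) and REEP6 (0.969) for CSF1R, NPBWR1 (0.985) for AIF1, and STAC3 (0.941) for CORO1A. CD68 was closest to TRAF3IP3 (0.972).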

How the data were processed

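RNA of each of the 11 cumulus samples was hybridised to 1 Affymetrix Rhesus Macaque array after linear amplification, per the labels' protocols. The deposited values are intensity on a linear scale, which the authors made with RMA (background correction, quantile normalization and probe summary) in Affymetrix Expression Console, per the submitters' processing notes, which give no versions. RMA gives all arrays nearly 1 distribution, so a global shift would be hidden, and the number of arrays limits the precision. Here log2 was taken with no pseudocount, and 99 control probe sets were left out, which leaves 52766. Symbols came from the array annotation: 24956 probe sets carried 1 symbol, 361 several and 27449 none, and all 10 member genes matched a RefSeq gene by identifier. A gene was represented by its brightest probe set over the 11 arrays.

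Groups were compared with limma 3.58.1 in R 4.3.3, in 1 model of 3 group means (8 residual degrees of freedom), two-sided, with Benjamini-Hochberg adjustment over all 52766 probe sets for each comparison. The fit was tested on simulated data with log2 changes of 1 and 2: it recovered 73% and 92% of them for IVM against VVM (9 false among 174 calls), 63% and 92% for IVM against PM (9 of 164), and 69% and 95% for VVM against PM (13 of 177). The simulated noise was normal, with 1 spread per probe set for all arrays. Several members spread far more in VVM, as LYZ did with an SD of 2.23, against 0.36 in PM and 0.21 in IVM. These rates therefore need not hold for such members.

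The members, the 12 marker lists (155 of 233 genes measured) and the tests were chosen with earlier results of these data known. Named were all member probe sets, and from each list up to 3 of the brightest genes and up to 3 called genes with the largest difference per comparison, of which the text gives those nearest the members' biology; NLRP5 and ZAR1 were named outside this rule, after their values were seen. For each member the 3 genes most alike by correlation were found among symbols that are not placeholders with a mean at or above the median. Residuals of arrays with the same replicate number had correlations of -0.107 to 0.101, and samples were therefore treated as unpaired. Alternatives changed the normalization, filters, threshold, prior, array weights, representative probe set, covariates and the arrays used; 2 were added after the data were seen.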

Additional observations from a re-analysis of the deposited data

Results flagged for a closer look

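Of 34 groups of 4 arrays examined, 2 held an array far from the other 3, where chance gives about 1 in 20. LYZ in PM 1 was at 4.10, with the nearest PM array at 3.41, a gap of 0.942 of the group's range. TYROBP in PM 2 was at 4.51, below the nearest PM array at 4.91, a gap of 0.917 of the range.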

How the results depend on the processing

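Over the 10 genes and 3 comparisons, 756 values under alternatives gave 637 with the same direction and call, 83 that lost the call, 13 that gained one and 23 that changed sign; the cause was not tested, beyond the fewer arrays or probe sets some of them use. Called were 3 member and 5989 probe sets in all for IVM against VVM, 5 and 21448 for IVM against PM, and 10 and 16483 for VVM against PM. With 1 array left out these, in the same order, ranged from 0 to 6, 3 to 5 and 7 to 15 for the members, and from 3445 to 6298, 16299 to 21994 and 12592 to 17061; the 3445 came without IVM 2. In IVM against VVM the member count was 1 with probe sets of mean at least 6, 1 without probe sets matching several transcripts (which drops TYROBP and a MAMU-DRA probe set), 0 with only those 2 groups, 0 with the hybridization control covariate, and 5 without VVM 2 and VVM 3, with or without PM 1; all probe sets gave 630 with that covariate, 3243 and 3948 with those arrays left out (with and without also dropping PM 1), and 2836 at 2-fold. In IVM against PM the members gave 3 with centring, cyclic loess, mean at least 6 or the replicate block, 1 with the 3′ minus 5′ covariate, 0 with the hybridization covariate and 2 at 2-fold; all probe sets gave 13707 at or above the median level, 11390 at mean at least 6, 7737, 2 and 6872. In VVM against PM the members gave 5 at mean at least 6, 4 with the 3′ minus 5′ covariate, 1 with the hybridization covariate and 6 without PM 1, VVM 2 and VVM 3; all probe sets gave 10478, 9293, 3370 and 7735, with 10148 without VVM 2 and VVM 3 and 6111 at 2-fold. The replicate block gave 4, 3 and 11 member calls and 4794, 17963 and 14757 over all probe sets. Of 11 arrays 4 were closest to an array of their own number, which does not settle whether the numbers pair the samples. Sign changes, all of differences that were not called except CD68 and CORO1A in IVM against PM, were these. In IVM against VVM, CD74 was at 0.18 without VVM 2 and VVM 3, AIF1 at -0.03 with cyclic loess, -0.01 with the hybridization covariate, -0.04 without VVM 4 (-0.04 to 0.13 with 1 array left out) and -0.32 as the mean of its probe sets, and CORO1A at -0.16 with the hybridization covariate. In IVM against PM, LYZ was at 0.17 without PM 1 (also without PM 1, VVM 2 and VVM 3) and 0.11 without IVM 2 (-0.09 to 0.17 with 1 array left out), TYROBP at -0.03 with cyclic loess and the block and at -0.70 and -2.31 with the 3′ minus 5′ and hybridization covariates, CD14 at -0.40 and -1.98, PTPRC at -0.63 and -2.29 and CD74 at -0.15 and -1.22 with these, and CD68 at -0.02 and CORO1A at -0.17 with the hybridization covariate. CORO1A in VVM against PM was at 0 with it.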
